A study of Mus musculus with 8 samples.

Results

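A divergent promoter is the stretch of DNA between the starts of 2 genes that are transcribed away from each other on opposite strands. The annotation that comes with the promoter arrays of this study marks such probes with both gene names and both distances. All 16208 probes so marked, of 474380 non-control probes on the 2 arrays (3.42%), are described here: 8365 on array 1 and 7843 on array 2. They covered 1521 gene pairs with 3040 gene names, and no pair and no probe was on both arrays. The choice used the annotation alone and no measured value. After 1 probe with an outlier mark was left out, 16207 probes were used.

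Each array compared Flag-IP DNA, labelled with Cy5, with input DNA, labelled with Cy3, from the same kind of cells. These were c-Kit+ hematopoietic progenitors derived from the mouse ES cell line B6N-22UTR that overexpressed 3xFLAG-HoxB4 from a retrovirus. The c-Kit+CD41+ precursors had been sorted from embryoid bodies on day 6, plated on OP9 stromal cells and transduced there, and the progenitors were collected with magnetic beads on day 12 of the coculture. All cells of both arrays thus carried the retroviral HoxB4, and they came from 1 ES cell line. Expression arrays of MigR1, HoxB4 and iHoxB4 cells belong to the same study and are not used here. No Flag-IP from cells without the tag was analysed here, so a ratio is Flag-IP over input and not over a mock precipitation.

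HoxB4 is a homeodomain transcription factor that expands blood stem and progenitor cells when overexpressed, and homeodomains bind short DNA stretches with a TAAT core. Many mammalian gene pairs are arranged head to head with a short stretch between their starts. Such shared promoters are typically rich in CpG, often carry CCAAT boxes, to which the factor NF-Y binds, seldom have a TATA box, and frequently serve housekeeping genes of DNA repair, translation and mitochondria.

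The value of a probe is the log2 of Flag-IP over input, centred on the median of its array, so that 1 means a ratio 2-fold above the middle of all probes. The term "region" is used for the probes of 1 gene pair, and "gap" for the distance between its 2 annotated starts. Every probe was measured on 1 array, so there is no replicate, no error between samples and no test, and each difference below is a description of these 2 arrays. Intervals cover counting alone. Which genome build the array coordinates follow was not given in the sources read. Only 44 of 1074 region starts lay within 20 kb of the GRCm38.p6 start of their gene, so the coordinates are printed as the files give them and are not those of GRCm38.

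The sequences below are promoters from RefSeq, build GRCm38.p6, of pairs to which the results return. Each runs 5′ to 3′ from 250 bases before the named gene's start, which is base 251, to 50 bases after it. Capitals mark TAAT and CCAAT on either strand (also read as ATTA and ATTGG), and a CCAAT can overlap a TAAT. They were chosen after the values had been seen. The first set holds short-gap pairs from the upper end of the region means whose gap fits into the window. Slc4a1ap lies at chr5:31526745-31527044 on the plus strand, and the start of its partner Supt7l is base 18. Imp4 lies at chr1:34439579-34439878, plus strand, and the start of Ccdc115 is base 94. Timm17b lies at chrX:7899086-7899385, plus strand, and the start of Pqbp1 is base 184.
Slc4a1ap: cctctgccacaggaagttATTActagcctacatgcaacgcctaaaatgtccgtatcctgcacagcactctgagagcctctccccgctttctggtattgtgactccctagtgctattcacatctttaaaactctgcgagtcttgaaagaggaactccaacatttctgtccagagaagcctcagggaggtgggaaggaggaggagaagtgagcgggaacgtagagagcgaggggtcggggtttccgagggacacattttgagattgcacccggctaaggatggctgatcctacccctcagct
Imp4: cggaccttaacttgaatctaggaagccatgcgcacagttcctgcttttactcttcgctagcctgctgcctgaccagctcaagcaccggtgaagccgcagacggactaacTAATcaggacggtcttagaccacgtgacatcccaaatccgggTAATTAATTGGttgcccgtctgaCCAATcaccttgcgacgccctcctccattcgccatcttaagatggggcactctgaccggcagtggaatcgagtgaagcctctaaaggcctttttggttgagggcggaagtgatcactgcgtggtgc
Timm17b: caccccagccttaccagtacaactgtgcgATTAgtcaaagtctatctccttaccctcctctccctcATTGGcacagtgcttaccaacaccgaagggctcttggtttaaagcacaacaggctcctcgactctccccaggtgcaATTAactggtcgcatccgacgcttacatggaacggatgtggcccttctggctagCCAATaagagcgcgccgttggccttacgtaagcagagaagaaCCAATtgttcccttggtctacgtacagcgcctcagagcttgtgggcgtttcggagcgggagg

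The next set comes from the lower end of the short-gap regions, chosen by the same rule on the gap. Mtag2 lies at chr7:45366983-45367282 on the plus strand, with the start of Ppfia3 at base 37. Vps29 lies at chr5:122354078-122354377, plus strand, with the start of Rad9b at base 128. Catsper3 lies at chr13:55784329-55784628, plus strand, with the start of 4930451E10Rik at base 140.
Mtag2: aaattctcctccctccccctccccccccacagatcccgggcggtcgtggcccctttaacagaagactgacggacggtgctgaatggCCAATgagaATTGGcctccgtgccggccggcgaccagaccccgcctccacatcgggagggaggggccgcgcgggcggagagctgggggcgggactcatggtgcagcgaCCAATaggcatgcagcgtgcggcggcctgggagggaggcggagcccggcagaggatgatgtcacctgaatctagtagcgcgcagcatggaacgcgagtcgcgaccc
Vps29: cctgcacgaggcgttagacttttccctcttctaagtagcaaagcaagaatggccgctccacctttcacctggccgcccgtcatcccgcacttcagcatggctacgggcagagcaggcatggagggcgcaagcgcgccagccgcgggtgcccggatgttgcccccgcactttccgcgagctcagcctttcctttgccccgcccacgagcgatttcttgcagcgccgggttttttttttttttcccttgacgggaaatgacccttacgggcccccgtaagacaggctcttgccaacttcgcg
Catsper3: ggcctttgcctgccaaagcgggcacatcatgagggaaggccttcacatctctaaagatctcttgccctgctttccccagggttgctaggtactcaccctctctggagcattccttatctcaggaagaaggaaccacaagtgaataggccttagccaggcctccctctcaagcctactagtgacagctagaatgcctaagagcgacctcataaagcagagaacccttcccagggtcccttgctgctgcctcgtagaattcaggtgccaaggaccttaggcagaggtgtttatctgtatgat

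The pair with the highest window of divergent probes alone is shown from both ends, since its gap of 840 bases between RefSeq starts is longer than a single printed stretch. Alg3 lies at chr16:20610712-20611011 on the minus strand and Eef1akmt4 at chr16:20611351-20611650 on the plus strand.
Alg3: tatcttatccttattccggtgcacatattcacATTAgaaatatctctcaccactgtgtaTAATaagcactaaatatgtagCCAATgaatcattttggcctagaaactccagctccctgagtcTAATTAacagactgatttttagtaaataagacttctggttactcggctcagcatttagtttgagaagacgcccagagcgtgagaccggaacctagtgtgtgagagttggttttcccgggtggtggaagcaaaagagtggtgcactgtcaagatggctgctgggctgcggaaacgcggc
Eef1akmt4: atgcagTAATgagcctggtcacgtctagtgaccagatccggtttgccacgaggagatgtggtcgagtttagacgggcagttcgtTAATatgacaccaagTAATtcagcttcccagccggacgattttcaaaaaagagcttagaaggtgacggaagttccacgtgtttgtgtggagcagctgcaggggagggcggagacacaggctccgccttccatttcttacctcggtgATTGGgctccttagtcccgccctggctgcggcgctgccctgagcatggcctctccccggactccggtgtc

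The last set shows a replication gene and 2 histone pairs of unlike signal. Orc1 lies at chr4:108579204-108579503, plus strand, with the start of Prpf38a at base 133. H2ac13 lies at chr13:21716162-21716461, plus strand, with the start of H2bc13 at base 22. H2bc12 lies at chr13:22035571-22035870, plus strand, with the start of H2ac12 at base 73.
Orc1: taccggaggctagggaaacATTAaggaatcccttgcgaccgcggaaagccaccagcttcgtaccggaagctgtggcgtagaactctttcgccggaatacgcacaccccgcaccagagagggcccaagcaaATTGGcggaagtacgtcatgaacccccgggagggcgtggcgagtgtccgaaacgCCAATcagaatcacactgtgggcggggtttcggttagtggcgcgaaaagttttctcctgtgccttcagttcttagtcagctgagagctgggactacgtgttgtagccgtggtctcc
H2ac13: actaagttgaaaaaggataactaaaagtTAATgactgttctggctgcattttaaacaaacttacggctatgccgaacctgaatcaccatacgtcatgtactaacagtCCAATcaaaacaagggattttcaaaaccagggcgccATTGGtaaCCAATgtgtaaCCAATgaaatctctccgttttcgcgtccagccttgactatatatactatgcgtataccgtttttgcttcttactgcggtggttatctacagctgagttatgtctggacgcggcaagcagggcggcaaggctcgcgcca
H2bc12: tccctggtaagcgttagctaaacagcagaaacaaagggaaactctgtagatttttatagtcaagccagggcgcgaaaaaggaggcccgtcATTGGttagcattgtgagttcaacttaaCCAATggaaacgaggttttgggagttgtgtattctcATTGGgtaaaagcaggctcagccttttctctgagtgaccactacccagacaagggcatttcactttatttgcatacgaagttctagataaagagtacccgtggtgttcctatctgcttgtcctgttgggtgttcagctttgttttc

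By letters alone, Slc4a1ap held 1 TAAT and 0 CCAAT, Imp4 held 4 TAAT and 2 CCAAT, and Timm17b held 2 TAAT and 3 CCAAT. Of the low set, Mtag2 held 0 TAAT and 3 CCAAT, and neither motif was found in the Vps29 and Catsper3 windows. Alg3 held 4 TAAT and 1 CCAAT, Eef1akmt4 held 3 and 1, and Orc1 held 1 and 2. The histone promoter of H2ac13 held 1 TAAT and 4 CCAAT, and that of H2bc12 held 0 and 3.

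The annotation was checked against RefSeq. Of 1077 pairs with a promoter entry for both genes, 1073 were on opposite strands of 1 chromosome, 1 was on the same strand and 3 were on different chromosomes. The starts of 1064 pairs were in head-to-head order or past each other by less than the gap in the files. In 23 pairs the RefSeq starts overlapped or lay past each other. The gap in the files was within 100 bp of the RefSeq gap for 756 pairs and within 1000 bp for 1004. Where a gene had more than 1 promoter entry, opposite strands and then the gap closest to the files were preferred. The agreement is thus partly set by that choice.

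Divergent promoter probes leaned toward Flag-IP. Their median log2 ratio was 0.10, against −0.11 for single promoter probes, 0.13 for probes inside genes and −0.51 for probes downstream of genes. Of the divergent probes, 12.6% were at or above 1 (2034 of 16207, exact 95% binomial interval 12.0 to 13.1%), against 8.81% of all probes. At or below −1 lay 12.4% of divergent probes, against 15.4% of all probes. At or above 2 lay 212 divergent probes (1.31%, against 0.635% of all), and at or below −2 lay 329 (2.03%, against 2.88% of all). The class median was 0.08 on array 1 and 0.12 on array 2. Probes inside genes had a higher median than divergent probes, so the class as a whole is not the highest on the arrays.

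The ratio of divergent probes fell with distance from a gene start. Within 250 bp of the nearer gene start, divergent probes had a median of 0.55 (2530 probes), against 0.29 for single promoter probes at the same distance (17158 probes). From 250 to 500 bp the medians were 0.33 for divergent and 0.15 for single promoter probes, and from 500 to 1000 bp they were 0.14 and −0.01. Beyond 4000 bp they were −0.15 for divergent and −0.24 for single promoter probes. In all 6 distance classes the divergent median was the higher on both arrays, by 0.07 to 0.29 on array 1 and by 0.10 to 0.24 on array 2. With the brightness trend removed the difference was 0.19 within 250 bp, 0.11 from 250 to 500 bp, and 0.0047 to 0.057 in the 4 classes beyond. The quartiles of both classes overlapped in every distance class. Within 250 bp, 26.2% of divergent probes reached 1, against 15.2% of single promoter probes.

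Region means also differed with the gap between the starts. The gaps ran from 43 to 16980 bp with a median of 3405 bp, and 552 of 1521 pairs (36.3%) had a gap under 1000 bp. These short-gap regions had a median region mean of 0.75, against −0.01 for the 969 regions with a longer gap. A region mean at or above 1 was found in 187 short-gap regions (33.9%) and in 31 longer ones (3.20%), against 1.16% of the 13913 genes with single promoter probes. Regions with fewer probes spread more: short-gap regions had a median of 1.5 probes, longer ones 14 and single promoter genes 17, and shares past a fold are raised by that spread. Medians are not raised by it. With the trend of the ratio on brightness removed, the difference between the 2 median levels was 0.44 in place of 0.76.

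By gap class, the median of region means was 0.70 under 500 bp (442 regions), 0.81 from 500 to 1000 bp (110), 0.48 from 1000 to 2000 bp (107), 0.28 from 2000 to 4000 bp (154) and −0.10 at 4000 bp or more (708). A long gap holds many probes far from a start, so the same comparison was made within 250 bp of a start. There the probe medians were 0.69 under 500 bp, 0.84 from 500 to 1000 bp, 0.61 from 1000 to 2000 bp, 0.45 from 2000 to 4000 bp and 0.41 at 4000 bp or more. The fall with gap length was smaller at matched distance, and it remained. The level near the starts of the longest gaps was above the 0.29 of single promoters.

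The higher level went on inside the genes. For genes of short-gap pairs, probes in the first 250 bp inside the gene had a median of 0.79, against 0.47 for genes of longer gaps and 0.36 for other genes. From 250 to 500 bp inside, the medians were 0.63 for short-gap genes, 0.43 for genes of longer gaps and 0.33 for other genes. From 500 to 1000 bp inside they were 0.28, 0.28 and 0.19 in the same order. From 1000 to 2000 bp inside the order had turned, with −0.03 for short-gap genes, 0.15 for genes of longer gaps and 0.03 for other genes. The excess of short-gap pairs was thus found in the gap and in the first 500 bp of the flanking genes. These inside probes are not divergent probes and lie in the stretch next to the gap.

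Composition and brightness differ between the kinds of promoter, and both moved with the gap. Promoters of short-gap genes had a median GC of 61.7%, against 57.3% for genes of longer gaps and 52.7% over the whole RefSeq table. Within 250 bp of a start and among promoters of 55 to 65% GC, the probe median was 0.96 for short gaps and 0.56 for longer gaps. It was 0.86 and 0.48 among promoters of 45 to 55% GC, and 0.55 and 0.33 at 65% GC or more. At under 45% GC it was 0.76 for short gaps (30 probes) and −0.01 for longer gaps (104 probes). A value of GC was at hand for 83.2% of the short-gap probes, 81.5% of the longer-gap probes and 79.1% of the single promoter probes. The last share is under the minimum of 80% set for such a comparison, so the comparison is void for that class. Its medians were −0.54 at under 45% GC, 0.31 at 45 to 55%, 0.50 at 55 to 65% and 0.28 at 65% or more. Below 55% GC they lay further under those of longer gaps than above it. In 4 classes of input signal that each hold an equal share of all probes of the array, from dim to bright, the short-gap medians were 0.83, 0.80, 0.99 and 0.60. The medians of longer gaps were 0.16, 0.48, 0.52 and 0.48, and those of single promoters −0.01, 0.21, 0.40 and 0.35. Short gaps were thus above longer gaps in all 4 GC classes, and above both other kinds in all 4 input classes.

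To find local peaks, the median over 3 neighbouring probes was taken as a window, and each region was described by its highest window. A window could be formed in 1037 regions. It reached 1 in 361 of them (34.8%, interval 31.9 to 37.8%), against 22.1% of 13320 single promoter genes. It reached 2 in 32 regions (3.09%), against 1.22% of single promoter genes. Of all 3-probe windows of any class, 6.45% reached 1 and 0.247% reached 2. The share was 35.5% on array 1 and 34.1% on array 2. Few short-gap regions hold 3 probes, and with flanking probes of any class 578 of 1487 regions (38.9%) had a window at or above 1. Such windows were not formed for single promoter genes, so this share has no like comparison. The choice of window moved the count by over 1.5 times, to 192 regions with windows of 5 probes.

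With divergent probes alone, the highest window lay at the gap of Alg3, a mannosyltransferase that builds the sugar chain for protein N-glycosylation, and Eef1akmt4, a lysine methyltransferase of elongation factor eEF1A. Its 5 probes at chr16:20524386-20525138 had log2 ratios of 1.51, 1.69, 2.21, 3.08 and 3.29 from the Alg3 end to the Eef1akmt4 end. The brightest, 688 bp from Alg3, had a Flag-IP signal of 17011 against an input signal of 1921. The ratio was thus highest at the Eef1akmt4 end, and the window was 3.08. With flanking probes included, the window at Supt7l and Slc4a1ap was higher, at 3.18.

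Sec22c, a gene of vesicle transport, and Ss18l2 followed with a window of 2.88. Their gap of 5429 bp at chr9:121553792-121558932 held 18 probes, of which 15 were at or above 1, with a mean of 1.84. That is a broad signal: it covered the 12 probes nearer Ss18l2 with a mean of 2.21 and the 6 nearer Sec22c with a mean of 1.11. Among the 708 regions with a gap of 4000 bp or more, a mean at or above 1 was found in 0.847%.

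Tmem138, a membrane protein gene of the cilium, and Cyb561a3, a cytochrome of the b561 family, had a window of 2.73. The 5 probes at chr19:10644185-10644757 had ratios of 2.23, 2.73, 2.73, 1.42 and 1.84 from the Tmem138 end on. All were above 1.

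Ndufaf3, an assembly factor of respiratory complex I, and Dalrd3 had a window of 2.70 at chr9:108425450-108428005. The 6 probes within 867 bp of Ndufaf3 lay between 1.76 and 2.73. The next 6, from 1103 to 2309 bp, lay between 0.27 and 1.02, and the last, at the Dalrd3 end, was at 1.47. Pcnx3 and Map3k11, a MAP kinase kinase kinase, had a window of 2.69 at chr19:5688232-5689150. Their 7 probes had ratios of 0.17, 0.32, 0.57, 1.21, 2.69, 2.73 and 1.72 from Pcnx3 to Map3k11, so the signal was one-sided. RefSeq places the 2 starts 223 bp apart, against 981 bp in the files.

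Rita1, an interactor of the Notch factor RBPJ, and Ddx54, an RNA helicase, had 3 probes at chr5:120873315-120873584 with ratios of 2.65, 2.72 and 2.12. The window was 2.65. Cyhr1 and Kifc2, a kinesin, had 3 probes at chr15:76487419-76487754 with ratios of 2.50, 2.46 and 0.73, and a window of 2.46. Btk, the Bruton tyrosine kinase of B-cell receptor signalling, and Rpl36a, a ribosomal protein, had 14 probes at chrX:129929450-129931989, of which 10 were at or above 1. Their window of 2.40 was 374 bp from Rpl36a, and the mean was 1.86 over the 7 probes nearer Rpl36a and 0.94 over the 7 nearer Btk.

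Zfp91, a zinc finger gene, and Lpxn, an adhesion adaptor of blood cells, had a window of 2.54. Their 13 probes at chr19:12863234-12865569 fell along the gap. The 7 within 1097 bp of Zfp91 lay between 1.31 and 2.72, the next was at 0.73, and the 5 nearest Lpxn lay between −0.91 and −0.11. Tefm, an elongation factor of mitochondrial transcription, and Adap2 had a window of 2.44, which was 4031 bp from Tefm in a gap of 12037 bp at chr11:79961468-79968312. The region mean was 0.20, and 2 of 14 probes were at or above 1. Of the probes under 1, 3 neighbours lay between −1.74 and −1.01 and the other 9 between −0.27 and 0.59.

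At the other end, the lowest of the highest windows, among regions of at least 3 probes all well above background, was −1.18 at Olfr1182 and Olfr1183, olfactory receptor genes. Their 6 probes at chr2:88256836-88257728 lay between −1.37 and −0.33. Tnfrsf12a, a receptor of the TNF family, and Cldn6, a tight junction gene, had ratios of −1.14, −0.56 and −1.92 at chr17:23405287-23405708. Becn1, a gene of autophagy, and Psme3, a proteasome activator, had a highest window of −1.07. Pycr1 with Notum had −0.96, and Anxa1 with 1500015L24Rik had −0.83. None of these 5 regions had a probe at or above 1. With normexp background correction their highest windows lay between −0.81 (Tnfrsf12a-Cldn6) and −0.52 (Pycr1-Notum), with −0.61 at Olfr1182-Olfr1183. With the brightness trend removed they lay between −0.95 (Tnfrsf12a-Cldn6) and −0.39 (Olfr1182-Olfr1183). The lowest region mean, −4.14 at Vmn1r233-Zfp160, rested on 1 probe that was not well above background. Regions with olfactory, vomeronasal or taste receptor genes numbered 44 and had a median region mean of −0.98. None of the 34 with a window reached 1, which allows a share of up to 10.3% (exact 95% bound).

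Short-gap regions with all probes well above background were also ranked by their mean. This rule was added after the data had been seen, since most short-gap regions hold fewer than 3 probes. The highest mean of all 1521 regions, 4.14, rested on a single probe between Supt7l, a subunit of the STAGA coactivator complex, and Slc4a1ap, at chr5:31803334-31803386. Its Flag-IP signal was 25578 and its input signal 1388. The nearest probes on either side, which lie inside Supt7l and inside Slc4a1ap, had ratios of 1.34 and 3.18, so the neighbours were high as well. Ccdc115 and Imp4, a component of the U3 nucleolar ribonucleoprotein, had probes at 2.30 and 2.72, and their inside neighbours were at 2.39 and 3.00. Hspa14 and Cdnf had 2.18 and 2.51, with inside neighbours at 2.68 and 1.91. Hscb, a co-chaperone of iron-sulfur cluster assembly, and Chek2, a DNA damage checkpoint kinase, had 1 probe at 2.55, with neighbours at 1.39 and 2.27.

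The other high means in this ranking were 2.65 at Gpalpp1 and Nufip1, 2.57 at Miip and Fv1, a gene that restricts retroviruses, 2.29 at Med29 and Paf1, and 2.27 at Pqbp1 and Timm17b. The Med29 side of that pair was not high, with an inside neighbour at −0.28, against 1.59 on the Paf1 side. For Pqbp1 and Timm17b the mean was 1.1 with normexp background correction. That probe had signals of 1192 in Flag-IP and 236 in input. The lowest short-gap mean was −2.26 at Usp37, a deubiquitinase, and Plcd4, a phospholipase C, also on 1 probe, with inside neighbours at −0.75 and −0.35. It was −0.86 with normexp and −1.34 with the brightness trend removed. RefSeq places these 2 starts 37068 bp apart. Next in the ranking came 4930451E10Rik with Catsper3, a channel subunit of sperm, at −0.85, Rad9b with Vps29, of the retromer, at −0.82, Ppfia3 with Mtag2 at −0.61 and Hsf3 with Heph at −0.52. The inside neighbours of Rad9b and Vps29 were at 1.32 and 0.37, so that low value was that of 1 probe, and it was 0.21 with normexp. With the brightness trend removed, the mean was −0.016 at 4930451E10Rik-Catsper3, −1.32 at Rad9b-Vps29, −0.30 at Ppfia3-Mtag2 and 0.073 at Hsf3-Heph. Rad9b-Vps29 and Hsf3-Heph thus each changed sign under 1 of these settings.

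The densest regions show how the signal varied along long gaps. Zic5 and Zic2, zinc finger genes of neural development, had 56 probes at chr14:121600864-121610377 with a mean of 0.24. Of these, 4 were at or above 1, and the highest window, 1.49, lay 1576 bp from Zic2. Usp39 and Tmem150a had 53 probes with a mean of 0.23 and a window of 1.13. Sox18, a regulator of vessel development, and Tcea2, an elongation factor, had 46 probes at chr2:181601039-181609624. Their mean was 0.84, 15 probes were at or above 1, and the highest window was 1.95, 3157 bp from Tcea2. Cdx1 and Pdgfrb had 48 probes with a mean of 0.27, and Sox8 and Lmf1 had 44 with a mean of 0.04. Of these 5 regions, Sox18-Tcea2 was the one with signal along much of the gap.

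In 890 regions with at least 2 probes nearer each start, the mean of the probes nearer the first gene minus that nearer the second had a median size of 0.40. It was at least 1 in 112 regions (12.6%). This share was 6.18% with normexp and 5.84% with the brightness trend removed. The largest difference was 2.15 at Zfp91-Lpxn, with 1.87 on the Zfp91 side and −0.28 on the Lpxn side. RefSeq places these starts 70 bp apart, against 2485 bp in the files. Apex2, a DNA repair endonuclease, and Pfkfb1, a regulator of glycolysis, had 1.64 on the Apex2 side and −0.44 on the Pfkfb1 side, a difference of 2.08. The difference was −1.99 at Slc7a7 and Mrpl52, a mitochondrial ribosomal protein, with −1.61 on the Slc7a7 side and 0.38 on the Mrpl52 side. The probes counted to Slc7a7 lay 3894 to 4491 bp from its start, in the middle of the gap, so none was near that start. Fancd2os and Brk1, an actin regulator, had −0.70 and 1.25, and Dzip1 and Dnajc3 had 0.05 and −1.90. The probes of Dzip1-Dnajc3 also lay far from both starts, 5775 to 6073 bp from Dzip1 and 4990 to 5166 bp from Dnajc3. In the 4 of these 5 pairs other than Dzip1-Dnajc3, the higher side belonged to Zfp91, Apex2, Mrpl52 or Brk1, and the highest windows lay 497, 572, 333 and 185 bp from those starts.

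In regions with a gap of 4000 bp or more, the highest window lay within 500 bp of a gene start in 161 of 658 (24.5%), against 1007 of all 9950 windows in these regions. The other highest windows lay farther out, with a median distance of 1918 bp over all 658. Regions whose gap class differs between RefSeq and the files were looked at separately, after the data had been seen. The 40 regions with a longer gap in the files and under 1000 bp in RefSeq had a median mean of 0.13, against −0.01 for the 608 with a longer gap in both. The 415 with a short gap in both had 0.80. The 10 with a short gap in the files and 1000 bp or more in RefSeq had 1.09, and 6 of them had a mean at or above 1.

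Gene lists of housekeeping and blood functions were set beside all regions, whose median region mean was 0.23 and of which 14.3% had a mean at or above 1. Among short-gap regions alone these values were 0.75 and 33.9%. Histone genes, most of them replication-dependent and in head-to-head pairs in a cluster, had 17 regions, 11 of them short. Their median was 0.47, and 2 were at or above 1. The list, matched by symbol, also took in H4f16-H2aj on chromosome 6, and the mean of that region, 0.47, is the list median. H2bc13-H2ac13 was the highest, with probes at 1.05 and 2.07 and a mean of 1.56. H2bc7-H2ac7 followed with 0.77 and 1.60, a mean of 1.19. H2ac12-H2bc12 had probes at −0.24 and 0.27, a mean of 0.02, and H4c6-H1f3 had −0.09 over 19 probes. The histone pairs were thus not alike, and the promoters of H2ac13 and H2bc12 above both hold several CCAAT boxes. Histone genes resemble each other closely, and cross-hybridisation between them was not tested.

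DNA repair and replication genes had 20 regions, 11 of them short, with a median of 0.40 and 6 at or above 1. All 6 were short-gap regions. Hscb-Chek2 led with 2.55, and Prpf38a with Orc1, a subunit of the origin recognition complex, had probes at 1.98 and 2.07 and a mean of 2.03. Rad50, of the double-strand break complex, with Il5 had a mean of −1.01 over 11 probes of a gap of 13496 bp, and Fanca with Spire2 had −0.83 over a gap of 14136 bp.

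Mitosis genes had 9 regions, 5 of them short, with a median of 0.91 and 4 at or above 1. Cmc2-Cenpn had 1 probe at 1.85, and Aurka, a mitotic kinase, with Cstf1, a polyadenylation factor, had 3 probes between 1.05 and 2.04 and a mean of 1.38. Cenpq-Mmut was the lowest with −0.44, and Cenpb-Cdc25b had 0.26. With 9 regions the list median rests on few values.

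Mitochondrial genes had 69 regions, 34 short, with a median of 0.35 and 12 at or above 1. Pqbp1-Timm17b had 2.27 and Mrpl50-Zfp189 had 2.13, each on 1 probe, against −0.63 at Mrpl35-Immt and −0.55 at Oaz3-Mrpl9, both with longer gaps. Genes of the cytosolic ribosome and translation had 55 regions, 24 short, with a median of 0.47 and 13 at or above 1. Med22-Rpl7a had 2.17 on 1 probe, and Txndc9 with Eif5b, a translation initiation factor, had 6 probes between 1.30 and 2.29 and a mean of 1.73. Ankar-Rpl37a had −1.19 and Rftn2-Mars2 had −1.10.

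Genes of chromatin and the transcription machinery had 42 regions, 21 short, with a median of 0.40 and 10 at or above 1, all of them short. Beside Supt7l-Slc4a1ap and Med29-Paf1, the lowest were Med24-Thra with −0.54 and Taf5l-Urb2 with −0.48. Proteasome, chaperone and ubiquitin genes had 48 regions, 21 short, with a median of 0.16 and 10 at or above 1. Hspa14-Cdnf had 2.34 and Psph-Cct6a had 1.87, against −0.73 at Dzip1-Dnajc3 and −0.65 at Atpif1-Dnajc8. Within the short-gap members the medians of the functional lists ran from 0.70 for histones to 1.28 for mitosis, beside 0.75 for all short-gap regions.

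Blood regulators had 4 divergent regions, all with long gaps, with a median of −0.06 and none with a mean at or above 1. Haglr-Hoxd1 had a mean of 0.14, Evx2-Hoxd13 had 0.02, Hoxa2-5730596B20Rik had −0.15, and Gcdh with Klf1, an erythroid factor, had −0.44. In Evx2-Hoxd13 the highest window was 1.12, and in the other 3 regions it lay between 0.68 and 0.87. Known head-to-head pairs, taken from a list of 22, were found 15 times, 13 with a short gap. Their median was 0.69, and 6 were at or above 1. Mcm4 and Prkdc, of replication licensing and DNA end joining, had 3 probes between 0.72 and 2.00 and a mean of 1.24. Psmb1-Tbp had a mean of 1.39, Hadha-Hadhb, of fatty acid oxidation, had 1.33, and Hspd1-Hspe1, the mitochondrial chaperonin pair, had 0.08 on 1 probe. Gart-Son had 0.11 over 6 probes.

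Short sequence motifs were counted in the RefSeq promoters of 919 short-gap genes, 1546 genes of longer gaps and all 27025 genes of the table. The 2 promoters of a short-gap pair overlap, so they are not independent. CCAAT was found in 46.5% of short-gap promoters, against 39.8% for longer gaps and 37.9% of the table. CGCG was found in 80.6%, 56.5% and 38.4% of the same sets, and TATAAA in 6.20%, 11.2% and 14.2%. TAAT was found in 38.1%, 49.3% and 58.3%, and TGATTNAT, a Hox and Pbx site, in 0.871%, 1.62% and 3.36%. GGAA was in 97.3%, 96.0% and 95.9%, and the NRF1 motif in 1.74%, 2.39% and 0.977%. Single promoter genes had an entry for 78.8%, under the same minimum of 80%, so they are no firm comparison. Their shares of 52.7% for CGCG and 51.1% for TAAT, and their median GC of 57.7%, lay near those of longer gaps. Motifs were read on both strands, and TATAAA and TAAT share letters without 1 containing the other. The short-gap promoters were thus poorer in TAAT than those of longer gaps and of the table. No Flag-IP ratio was taken over the whole table. The median GC of the same sets was 61.7%, 57.3% and 52.7%, so GC differed along with TAAT. The part of composition in these shares was not tested.

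Among short-gap pairs, TAAT was more frequent where the ratio was higher. It was found in 51.7% of promoters of regions with a mean at or above 1 (327 promoters), in 31.6% with a mean between 0 and 1 (519) and in 23.3% with a mean at or below 0 (73). The last set had an entry for 78.5% of its genes, under the minimum of 80%, so only the first 2 sets are a firm comparison. TGATTNAT was found in 0.612%, 1.16% and 0.0% of these sets and did not follow the ratio. CCAAT was found in 180 of the 327 promoters of the first set, and in 43.0% and 32.9% of the other sets. The median GC was 59.0%, 63.7% and 62.3%. Within promoters of 55 to 65% GC, grouped by the mean of the probes within 250 bp of the start, TAAT was found in 57.7% at or above 1 (142 promoters), 26.4% between 0 and 1 (140) and 28.6% at or below 0 (21). At 45 to 55% GC the shares were 72.7%, 66.7% and 61.5%, and at 65% GC or more 28.6%, 14.9% and 3.85%. The difference in TAAT between the highest and the lowest set of region means was 28.4 percentage points, and 10.2 with normexp background correction. It rests on the lowest set and so is no firm comparison. Longer-gap promoters, grouped by the probes within 250 bp of the start, showed no such order when taken over all GC. TAAT was in 53.9% at or above 1 (180 promoters), 44.9% between 0 and 1 (572) and 53.2% at or below 0 (205). Among those of 55 to 65% GC the shares fell with the ratio, at 47.9%, 43.9% and 32.8%. They did not fall in this order in the other GC classes. At 45 to 55% GC the shares were 65.5%, 66.4% and 63.9%, and at under 45% 83.3%, 96.6% and 94.7%. At 65% GC or more TAAT was in 8 of 20 promoters at or above 1. There it was in 13.8% between 0 and 1 and in 19.4% at or below 0. Single promoters, with the limit on entries given above, had 53.5%, 42.4% and 64.6% over all GC. Their shares were 24.8%, 16.7% and 11.8% at 65% GC or more, and 47.4%, 40.4% and 43.1% at 55 to 65%. At 45 to 55% GC they were 74.4%, 71.4% and 72.8%, and at under 45% 94.1%, 88.7% and 95.4%. A match of 4 letters is frequent by length alone and is not a binding site.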

How the data were processed

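ChIP-chip (chromatin immunoprecipitation read on a microarray) was measured on 2 Agilent promoter arrays with different probes, hence n = 1 per probe. Immunoprecipitated and input DNA were amplified with T7 RNA polymerase before labelling, per the labels' protocols. The deposited files hold, per the file headers, Feature Extraction's processed intensity of each channel, background-subtracted and dye-normalized, and its LogRatio, a log10 of red over green. The series' value table of the authors holds the same log10 ratio, without a stated scale; it equalled LogRatio after centring. Neither labels nor headers name the genome build of the probe coordinates. Intensities stand in for depth: 96.5% of divergent probes on array 1 and 96.9% on array 2 were well above background in both channels, and 0 were saturated. The array number limits the precision.

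The log2 of red (Flag-IP) over green (input) processed intensity was centred on each array's median (0.06 and 0.07 before centring). Control spots and 57 outlier-marked probes were left out. Windows were medians of 3 probes with starts at most 1000 bp apart. Names were updated through RefSeq accession (2945 of 3040), symbol (56) or synonym (23), and 16 were kept. Lists match by symbol prefix, so a few members share only the prefix, such as the kinase gene Rps6kb1 in the ribosome list. Named are the 10 highest and 5 lowest windows among 709 regions with at least 3 probes all well above background, the 5 regions with most probes, the 5 largest asymmetries, and up to 4 regions per list. Short-gap extremes, among regions with all probes well above background, and more members of the lists were added after values were seen. Members and lists were chosen with earlier results of these data known. Alternatives were normexp background correction with offset 50 (limma 3.58.1, R 4.3.3), the deposited LogRatio and value table, dim probes left out, a lowess brightness trend removed (statsmodels 0.14.6), each array alone, other windows and folds, and chemoreceptor regions left out. Other steps ran in Python 3.11.15 with pandas 2.3.3 and scipy 1.17.1. The scripts were tested on simulated data. The 6 expression columns of the value table were not used.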

Additional observations from a re-analysis of the deposited data

How the results depend on the processing

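Over the 7 results that answer a comparison, 40 of 61 alternative values stayed within the counting interval or within 1.5 times of a count. The 40 include those of the 2 deposited ratios, which repeat the reported values and are no separate check. No median or difference changed direction, and shares and counts cannot do so. The median of divergent probes, 0.10, was 0.14 with normexp, 0.12 with dim probes left out, 0.041 with the brightness trend removed, 0.079 on array 1, 0.12 on array 2 and 0.13 without chemoreceptor regions. The share of divergent probes at or above 1, 12.6%, was 16.6% with normexp, 9.30% with the trend removed, 13.1% on array 1, 11.9% on array 2 and 1.31% at or above 2. With the trend removed, divergent minus single promoter probes within 250 bp was 0.19 in place of 0.27, the short-gap minus longer-gap difference was 0.44 in place of 0.76, and asymmetric regions made up 5.84% in place of 12.6%. Asymmetric regions made up 6.18% with normexp and 10.4% on array 2, and the TAAT difference was 10.2 percentage points with normexp in place of 28.4. The TAAT difference rests on the lowest set of region means, which had too few promoter entries for a firm comparison. Beyond 4000 bp the divergent minus single difference, 0.09, was 0.0047 with the trend removed. The count of regions with a window at or above 1, 361, was 192 with 5-probe windows, 218 by region mean, 32 at a fold of 2 and 578 with flanking probes. The cause of these shifts was not tested. For 37 named regions, 168 of 185 values stayed within the range of their probes. That range was widened by a fixed margin where it was narrow, as for regions of 1 probe. The 2 deposited ratios, which repeat the reported values, are among the 185. A small value could change sign within the range, as at Dzip1-Dnajc3 with 0.086, and −0.15 with normexp. No paired analysis was possible because each probe was measured on 1 array and no result came from a test. Without a second array per probe, no region's value has an error, and regions of 1 probe rest on a single spot.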
